A study of Triticum aestivum with 6 samples.

Results

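The short arms of wheat chromosomes 7A, 7B and 7D (7AS, 7BS and 7DS) and the long arm of chromosome 4A (4AL) were compared for their leaf transcript levels at 23 °C and 4 °C. Genes were taken by the chromosome arm in their ID. A gene was kept where its FPKM (fragment numbers scaled to the length of the transcript and to the size of the library), summed over its transcripts, was at least 1 in both conditions and its mean over the conditions was under 100. This left 3630 of the 9795 gene IDs of the 4 arms, out of 36956 genes that passed the same filter among all 99386 gene IDs of the table. The kept genes numbered 971 on 7AS, 651 on 7BS, 964 on 7DS and 1044 on 4AL.

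Bread wheat (Triticum aestivum) carries A, B and D subgenomes, so most genes exist as homoeologous copies on corresponding arms of the 3 subgenomes. The short arms of group 7 are such counterparts. The end of 4AL holds a segment that was moved there from 7BS, so copies of genes at the ends of 7AS and 7DS are found on 4AL in place of 7BS. The rest of 4AL corresponds mainly to 4BS and 4DS. Known wheat loci with this placement on 7AS, 7DS and 4AL include the Waxy genes, which encode the granule-bound starch synthase that makes amylose, and genes of fructosyltransferases, which build the fructans that leaves store in the cold. The gene IDs are paired with no name or position within an arm, so none of these loci was identified here, and genes of the moved segment could not be separated from the rest of 4AL.

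The leaves came from plants kept in separate growth chambers at 23 °C or 4 °C, with a 16-hour photoperiod and a light intensity of 120 μmol per square metre and second, and 3 libraries were made per temperature. The weeks in the labels are 2 at 23 °C and 4 at 4 °C, a treatment of 2 weeks in the cold is mentioned, and the labels assign all samples an 18:3 lipid phenotype, a term for plants that assemble chloroplast lipids mainly from precursors made in the endoplasmic reticulum. No cultivar is given in them. Temperature, chamber and labelled weeks differ together and cannot be told apart. The deposited table holds 1 value per transcript and condition, so the values below have no replicate error, no difference was tested, and the depth behind them is unknown. In whole leaves, fewer cells of a type and less RNA per cell cannot be told apart. Tissue markers could not be checked, because the IDs carry no gene names.

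Of the 4 arms, 4AL held the most gene IDs and 7BS the fewest. There were 3151 IDs on 4AL, 2535 on 7AS, 2510 on 7DS and 1599 on 7BS. For comparison, 4BS had 1930 IDs and 4DS had 1829. The kept share was highest on 7BS, at 40.7%, followed by 7DS with 38.4%, 7AS with 38.3% and 4AL with 33.1%, against 37.2% over all gene IDs. In the order of kept shares over 41 arms, 4AL ranked 36 and 7BS ranked 13.

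The low share of 4AL went with many silent IDs. On 4AL, 31.9% of IDs were listed at 0 in both conditions, against 28.3% on 7AS, 27.7% on 7DS, 24.6% on 7BS and 27.3% over all IDs. IDs above 0 in at least 1 condition but under 1 FPKM in both made up 24.6% to 25.8% of each arm, against 26.6% over all IDs. A further 118 IDs on 7AS, 60 on 7BS, 87 on 7DS and 129 on 4AL were under 1 FPKM at 23 °C alone. The reverse, under 1 FPKM at 4 °C alone, held for 80, 83, 98 and 128 IDs in the same order. Over all IDs the shares were 4.00% and 3.82%. On 7DS (3.47% and 3.90%) and 4AL (4.09% and 4.06%) they were close to these, on 7AS they were 4.65% and 3.16%, and on 7BS 3.75% and 5.19%. Genes with a mean of 100 FPKM or more numbered 24 on 7AS, 13 on 7BS, 33 on 7DS and 30 on 4AL. These are 0.95%, 0.81%, 1.31% and 0.95% of the IDs, against 1.07% over all IDs.

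**Figure D1:**
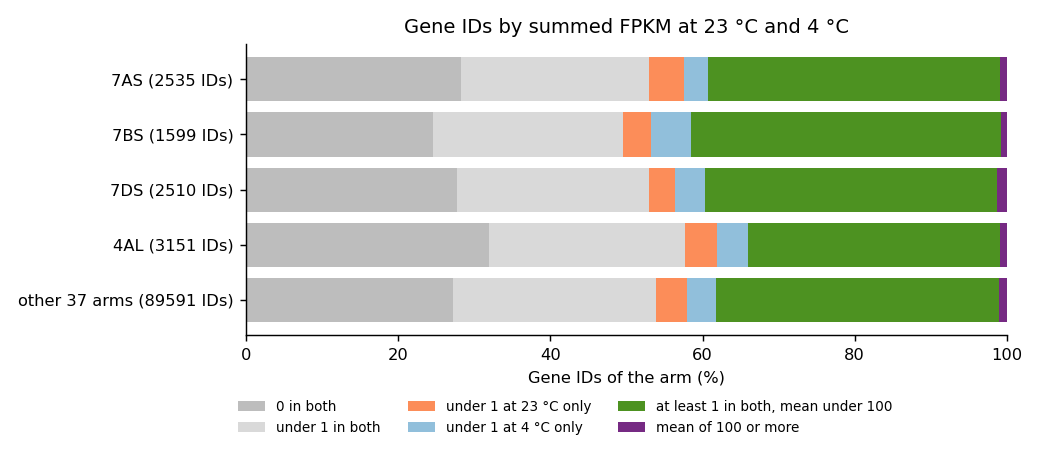
Each bar splits the gene IDs of an arm, in percent, by their summed FPKM in the 2 conditions. The share kept (green) was 33.1% on 4AL, where 31.9% of IDs were listed at 0 in both conditions, and 38.3% to 40.7% on the group 7 short arms.

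At the edges of the filter, the kept gene with the lowest value lay on 7AS, at 1.0007 FPKM at 23 °C against 1.67 FPKM in the cold. The nearest gene left out, on 7BS, went from 1.11 FPKM to 0.9999 FPKM at 4 °C. At the upper limit, a 7DS gene with a mean of 99.2 FPKM was kept and a 7AS gene with a mean of 100.9 FPKM was not.

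Kept genes took 37.6% of the summed FPKM of 7AS at 23 °C and 44.8% at 4 °C, and 60.9% and 65.6% of that of 7BS. On 7DS the shares were 42.3% and 43.8%, and on 4AL 42.6% and 47.9%. Over all genes they were 43.8% and 48.2%, so 7DS and 4AL were near that background at 23 °C. At 23 °C the 7BS total thus came mostly from kept genes. That of the other 3 arms came mostly from genes that the filter left out, as it did over all genes.

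The typical gene of 4AL differed more towards 4 °C than the typical gene of the group 7 short arms. Differences are given as the log2 of FPKM at 4 °C divided by FPKM at 23 °C, with no pseudocount. The median was 0.15 on 4AL, 0.08 on 7DS, 0.07 on 7BS and 0.03 on 7AS, and 0.11 over all 36956 genes. Relative to all genes, 4AL was thus higher by 0.04, and 7DS, 7BS and 7AS differed by -0.03, -0.04 and -0.07. These are small against the spread within an arm, where the quartiles were -0.34 and 0.62 on 4AL and -0.40 and 0.58 on 7AS.

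Scaling of the columns decides the sign of these medians. Median-of-ratios scaling, which sets the typical ratio of genes of 1 FPKM or more to 1, lowered every log2 ratio by 0.11. The median was then 0.04 on 4AL, -0.03 on 7DS, -0.04 on 7BS and -0.08 on 7AS. Quantile normalization gave -0.02, -0.08, -0.09 and -0.12, with the arms in the same order. Median-of-ratios scaling shifts all genes alike and cannot change that order. Other filters did change it. 7BS was above 7DS with both sums at least 5 FPKM, and above 4AL for genes with 1 transcript. With a mean of at least 1 FPKM and a pseudocount of 1, 7AS was above 7DS and 7BS. Because the sign depends on scaling, medians are set beside those of all genes. Shares, counts and sums below are in the deposited values unless another setting is named.

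Among the medians of 41 arms, 4AL ranked 8 from the top, 7DS 31, 7BS 35 and 7AS 38. The other 37 arms ranged from -0.03 on 6DS to 0.27 on 6AL, so all 4 arms lay inside that range. The long arms of group 7 had medians of 0.10 on 7AL, 0.07 on 7BL and 0.05 on 7DL, also below the value of all genes. Pooled, the 2586 genes of the group 7 short arms had a median of 0.06 and the 2606 of the long arms 0.08. The counterparts of the greater part of 4AL had medians of 0.12 on 4BS and 0.10 on 4DS.

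**Figure D2:**
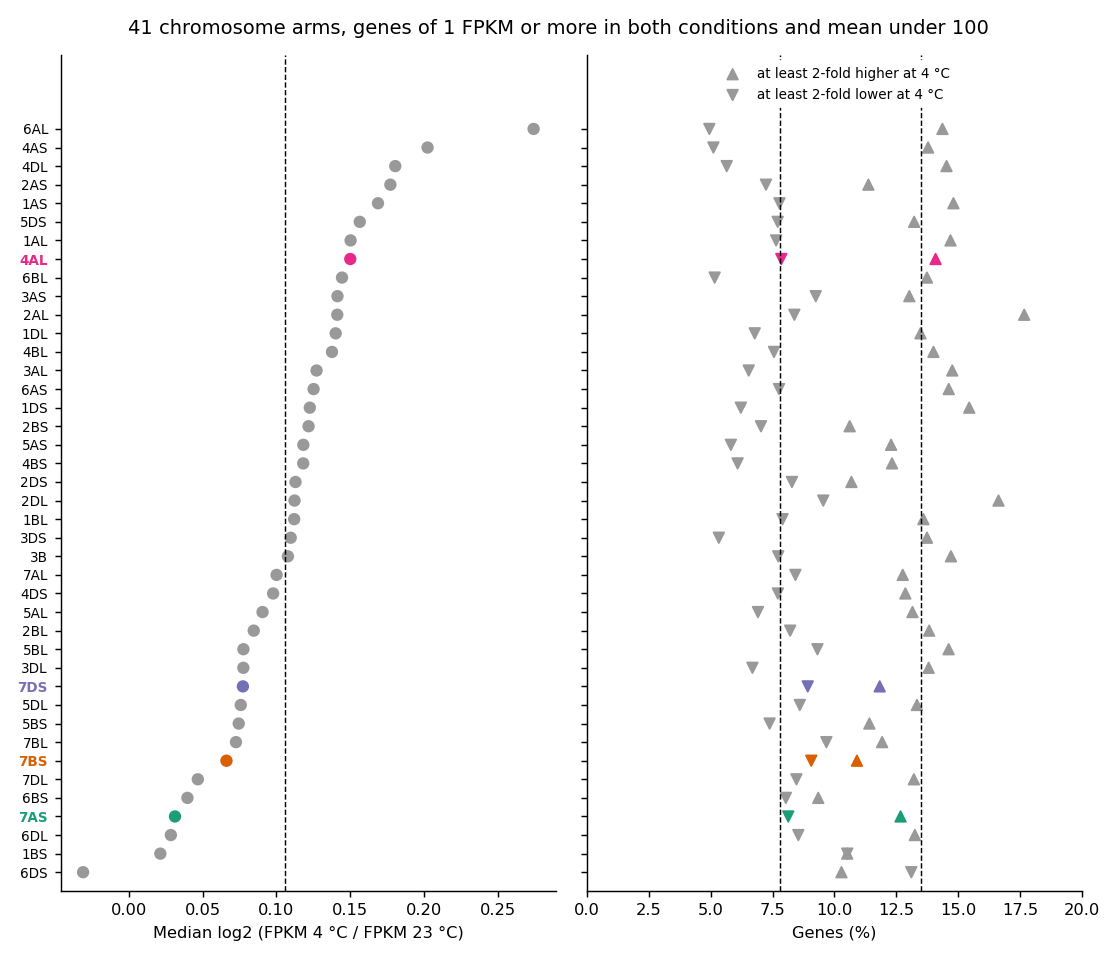
Left, median log2 ratio of 4 °C to 23 °C for each of 41 arms, ordered by that median; right, the percent of genes at least 2-fold higher (triangles up) or lower (triangles down) at 4 °C. Dashed lines give the values over all genes (0.11, 13.5% and 7.81%). 4AL lies above the median line, and 7DS, 7BS and 7AS lie below it.

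Slightly more than 50% of genes were higher at 4 °C on each arm in the deposited values. The share was 51.6% on 7AS, 54.4% on 7BS, 54.6% on 7DS and 57.6% on 4AL, against 56.2% over all genes.

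Differences of at least 2-fold towards 4 °C were less frequent on 7BS and 7DS than over all genes. At this threshold 123 genes of 7AS were higher at 4 °C, or 12.7%, 71 of 7BS (10.9%), 114 of 7DS (11.8%) and 147 of 4AL (14.1%). Over all genes that passed the filter the share was 13.5%. This puts 4AL slightly above and 7AS slightly below the background, both near it, and 7BS lowest of the 4 in the deposited values. 7DS was lowest instead after median-of-ratios scaling (9.85% against 10.3% on 7BS), after quantile normalization (8.82% against 9.22%) and for genes with 1 transcript (11.3% against 14.3%). With both sums at least 5 FPKM, 7AS was above the background instead, at 13.9% against 12.8%. In the other direction, 79 genes of 7AS were at least 2-fold lower at 4 °C, or 8.14%, 59 of 7BS (9.06%), 86 of 7DS (8.92%) and 82 of 4AL (7.85%). The background for lower genes was 7.81%, so 4AL and 7AS were near it and 7BS and 7DS above it in the deposited values. 7DS was below all genes only with a mean of at least 1 FPKM and a pseudocount of 1 (6.37% against 6.48%). 7BS was below only for genes with 1 transcript (8.40% against 9.49%). With both sums at least 5 FPKM, 7AS was well below, at 3.54% against 5.17%. The shares on the other 37 arms spanned 9.35% to 17.7% for higher genes and 4.95% to 13.1% for lower genes, and all 4 arms lay within these spans. The long arms of group 7 were similar to the short arms. Pooled, 12.6% of genes of the long arms were higher and 8.86% lower, against 11.9% and 8.66% on the short arms.

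Among genes that differed at least 2-fold, those higher at 4 °C made up 60.9% on 7AS, 54.6% on 7BS, 57.0% on 7DS and 64.2% on 4AL, against 63.4% over all genes. After median-of-ratios scaling the shares were 51.2%, 49.3%, 47.5% and 57.2%, against 54.0%. After quantile normalization they were 44.9%, 43.2%, 42.3% and 51.2%, against 48.0%. Higher genes outnumbered lower ones on 4AL in all 3 versions, and on 7BS and 7DS in the deposited values alone.

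**Figure D3:**
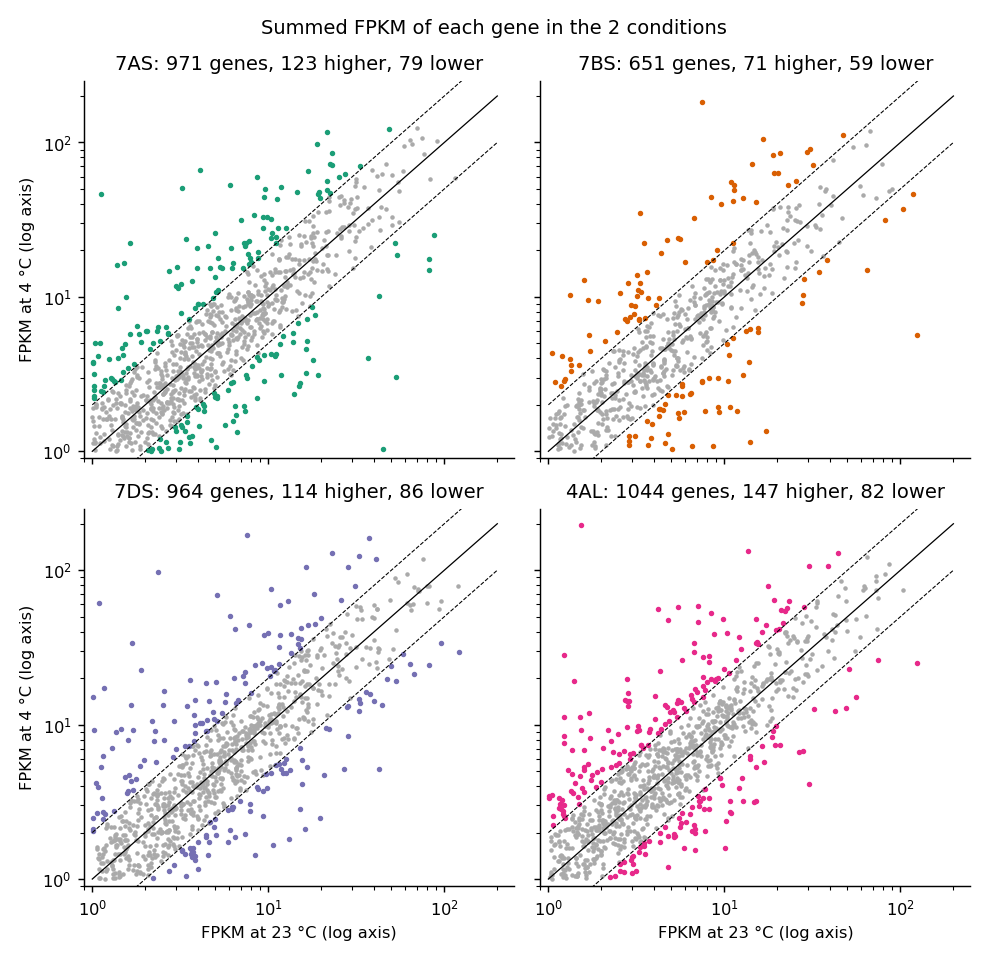
Each point is a gene, with its summed FPKM at 23 °C on the x axis and at 4 °C on the y axis, both on log axes; coloured points lie outside the dashed 2-fold lines. Higher genes outnumber lower ones by 147 to 82 on 4AL and by 71 to 59 on 7BS.

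Larger differences were few. At 4-fold, 34 genes of 7DS, or 3.53%, were higher at 4 °C and 10, or 1.04%, were lower. On 7BS, 25 genes (3.84%) were higher and 14 (2.15%) lower, on 7AS 25 (2.57%) and 16 (1.65%), and on 4AL 33 (3.16%) and 11 (1.05%). The background at 4-fold was 3.15% for higher and 1.39% for lower genes. In the deposited values, 7BS had the largest shares of the 4 arms in both directions; shares at 4-fold were not computed under other settings.

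At 8-fold, 11 genes of 7DS were higher at 4 °C and 1 was lower, and on 4AL 9 were higher and 0 were lower. On 7AS 7 were higher and 3 lower, and on 7BS 3 were higher and 4 lower. The background at 8-fold was 0.828% for higher and 0.308% for lower genes, and the shares of higher genes on the arms ran from 0.461% on 7BS to 1.14% on 7DS. These are counts of few genes, with no replicate check.

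The filter bounds the ratios of low genes. With at least 1 FPKM in both conditions, a gene needs a mean of 1.5 FPKM to differ 2-fold, 2.5 FPKM to differ 4-fold and 4.5 FPKM to differ 8-fold. Between 41.9% of genes on 7DS and 45.8% on 7AS had means too low for an 8-fold difference, against 43.4% over all genes. Shares are therefore comparable between arms more than between abundance classes.

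The largest ratio of all 36956 genes lay on 4AL. Traes_4AL_16456D1B6 went from 1.52 FPKM at the higher temperature to 196.1 FPKM at the lower one, which is 128.6 times as much. All 4 of its transcripts were higher at 4 °C. The leading one went from 0.695 to 121.5 FPKM at 4 °C, where the others reached 35.4, 30.5 and 8.73 FPKM. With a mean of 98.8 FPKM the gene lay just under the upper limit of the filter.

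The next largest ratio on these arms was that of Traes_7DS_884757158, which has 1 transcript. Its level was 1.09 FPKM in warm-grown leaves and 61.8 FPKM in those from 4 °C, 56.6 times as much, and its ratio was number 4 in the order of all genes. Its 23 °C value was near the lower limit of 1 FPKM.

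In the other direction, Traes_7AS_117ECD341 went from 44.9 FPKM at 23 °C to 1.03 FPKM at 4 °C, 43.6 times lower. It ranked 8 among the lowest ratios of genes that passed the filter, an order without genes under 1 FPKM at 4 °C. Its 4 °C value was near that lower limit. Its leading transcript went from 40.4 to 1.03 FPKM. Traes_7BS_0997D563B went from 123.5 FPKM at 23 °C to 5.65 FPKM at 4 °C, 21.8 times lower, and each of its 4 transcripts was lower at 4 °C. The leading one went from 78.3 to 3.53 FPKM. The files pair none of these 4 IDs with a function.

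Other genes with large differences are described by arm alone. On 7DS, the second largest ratio belonged to a gene that went from 2.36 to 97.4 FPKM at 4 °C, and the next to one that went from 7.53 to 168.4 FPKM. On 7AS the largest ratio towards 4 °C was that of a gene at 1.11 FPKM in the 23 °C column and 46.5 in the other, followed by one at 4.10 and 66.3 FPKM. The first 4 of 7AS have 1 transcript each. On 7BS a single gene stood apart, at 7.49 FPKM in the 23 °C column and 182.9 FPKM in the cold, and the next was at 3.30 and 34.98 FPKM. On 4AL the gene after the first went from 1.23 to 28.4 FPKM at 4 °C.

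Among genes lower at 4 °C, 4AL had the mildest extremes. Its lowest ratio was that of a gene that went from 30.2 to 4.11 FPKM at 4 °C, 7.35 times lower. On 7DS the lowest was 8.30 times lower, from 42.6 to 5.13 FPKM. On 7AS the second lowest went from 53.4 to 3.02 FPKM. On 7BS the next went from 17.2 to 1.36 FPKM and the one after it from 13.95 to 1.15 FPKM.

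**Figure D4:**
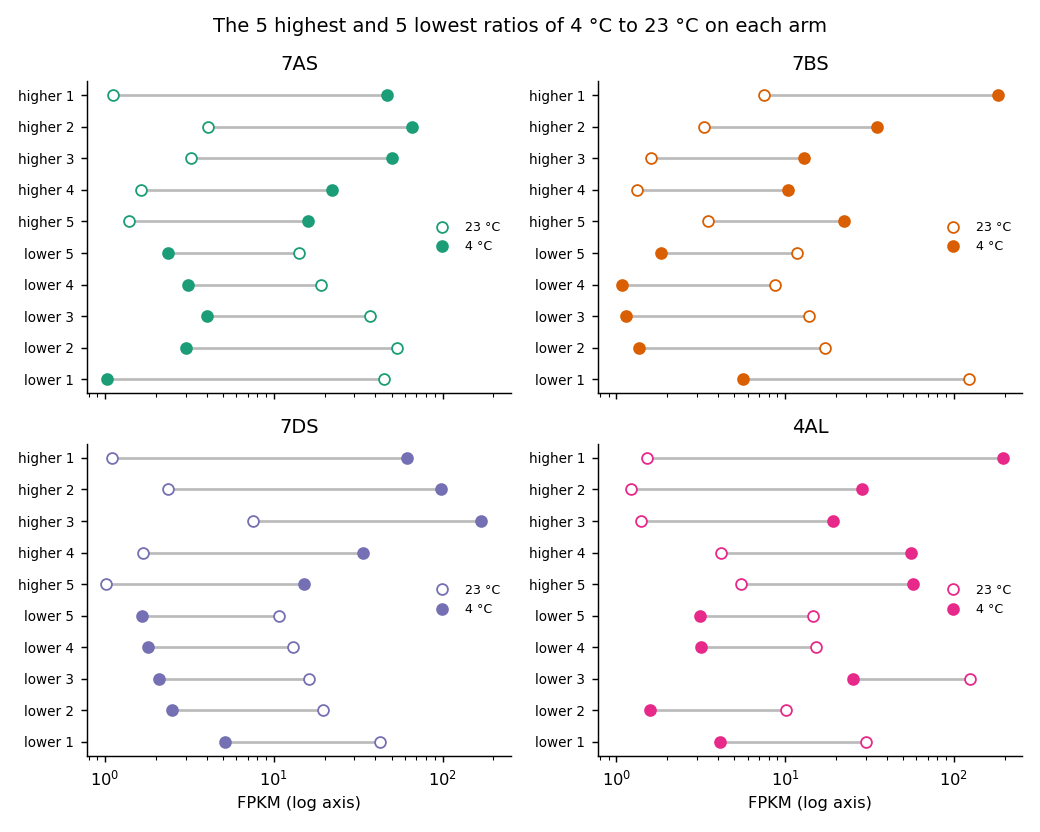
For each arm, the 5 genes with the highest ratio of 4 °C to 23 °C (higher 1 to 5) and the 5 with the lowest (lower 1 to 5) are shown with their FPKM at 23 °C (open circles) and 4 °C (filled circles) on a log axis. The widest pair is the 4AL gene at 1.52 and 196.1 FPKM.

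The group 7 short arms lay below all genes at means under 5 FPKM and above them, 7BS only slightly, at 20 to under 100 FPKM. Genes were split by mean FPKM into classes of 1 to under 5, 5 to under 20 and 20 to under 100. In the lowest class the median log2 ratio was -0.04 on 7AS, -0.05 on 7BS and -0.04 on 7DS, against 0.05 on 4AL and 0.01 over all genes of the class. The 3 group 7 short arms ranked 34 to 36 of 41 here, and 4AL ranked 11. These medians are relative to deposited values. After median-of-ratios scaling all of them were negative, with 4AL at -0.06 and the group 7 short arms at -0.15 to -0.16. Over all genes of the class it was then -0.09. The long arms of group 7, pooled, were also below all genes of this class in the deposited values, at -0.03. Of these, 7DL had -0.08, 7AL -0.02 and 7BL 0.02.

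In the class of 20 to under 100 FPKM 7AS and 7DS came first of the 4 arms. The median was 0.49 on 7AS, 0.44 on 7DS, 0.39 on 7BS and 0.38 on 4AL, all above the 0.35 of all genes of the class. Of 41 arms, 7AS ranked 4, 7DS 7, 7BS 15 and 4AL 16, so 7BS and 4AL were alike and close to all genes. After median-of-ratios scaling the medians were 0.38, 0.33, 0.28 and 0.28 in the order 7AS, 7DS, 7BS and 4AL, against 0.24. Unlike the short arms, the pooled long arms of group 7 were below all genes of this class in the deposited values, at 0.26. In the middle class 7AS was again below all genes; medians there were 0.06 on 7AS, 0.14 on 7DS, 0.17 on 7BS and 0.18 on 4AL, against 0.15. Of the 4 arms, 7AS had the steepest gradient over the classes, from -0.04 through 0.06 to 0.49.

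In the deposited values, shares of genes at least 2-fold higher differed most between the arms in the lowest class. In the lowest class 16 of 326 genes on 7BS were at least 2-fold higher at 4 °C, or 4.91%, the lowest share of all 41 arms. On 7DS it was 27 of 439 (6.15%), on 7AS 42 of 482 (8.71%) and on 4AL 49 of 521 (9.40%), against 9.18% over all genes of the class. In the class of 5 to under 20 FPKM the shares were 13.7% on 7AS, 14.2% on 7BS, 14.1% on 7DS and 16.4% on 4AL, against 15.3%. The share of 7AS was thus near that of all genes in the lowest class and below it in the middle one. In the class of 20 to under 100 FPKM the shares were 24.8% of 125 genes on 7AS, 24.7% of 85 on 7BS, 23.2% of 142 on 7DS and 26.2% of 126 on 4AL, near the 23.4% of all genes. With a pseudocount of 1 or after median-of-ratios scaling, the lowest class was not the one where the arms differed most. The pseudocount left 21 of 482 genes on 7AS and 9 of 326 on 7BS in that class. For 7DS it left 13 of 439 and for 4AL 24 of 521. After the scaling, 7BS (16 of 326) and 7DS (22 of 439) were alike there.

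Lower genes of the highest class were most frequent on 7DS. There, 19 of 142 genes were at least 2-fold lower at 4 °C, or 13.4%, which ranked 3 among the shares of 41 arms. On 4AL the count was 7 of 126, or 5.56%, on 7AS 9 of 125 (7.20%) and on 7BS 8 of 85 (9.41%), with 8.10% over all genes of the class. 7DS thus had both a high median and a wide spread in this class, with quartiles of -0.37 and 0.99. The quartiles of 4AL were -0.13 and 1.03.

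**Figure D5:**
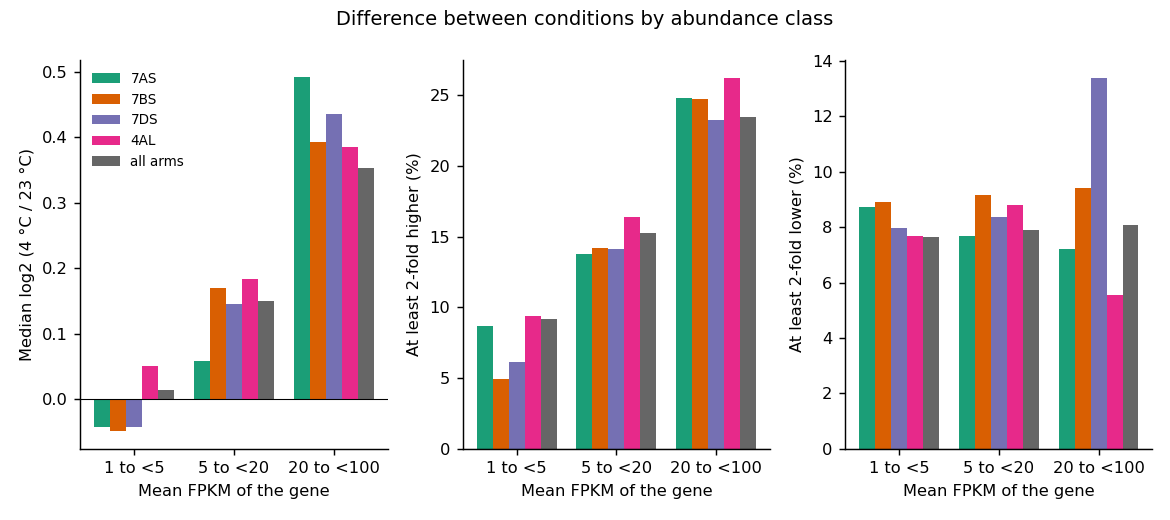
Bars give, for 3 classes of mean FPKM, the median log2 ratio of 4 °C to 23 °C and the percent of genes at least 2-fold higher or lower at 4 °C, for the 4 arms and over all arms. The group 7 short arms lie below 0 in the class of 1 to under 5 FPKM. On 7DS, 13.4% of genes are at least 2-fold lower in the class of 20 to under 100 FPKM.

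The make-up of the arms by class was alike. The lowest class held 49.6% of the kept genes on 7AS, 50.1% on 7BS, 45.5% on 7DS and 49.9% on 4AL, against 47.4% over all genes. The highest class held 12.9%, 13.1%, 14.7% and 12.1%, against 13.8%. It took 45.3% to 51.1% of the arms' kept FPKM at 23 °C and 50.8% to 55.6% at 4 °C.

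Counted within each condition, the number of kept genes at 20 FPKM or more was larger at 4 °C on every one of the 4 arms in the deposited values. It was 99 at 23 °C and 138 at 4 °C on 7AS, 67 and 85 on 7BS, 109 and 146 on 7DS, and 105 and 135 on 4AL. The ratio of these counts was 1.39 on 7AS and 1.27 on 7BS, against 1.25 over all genes. Most genes stayed in their class, from 74.7% on 4AL to 76.3% on 7AS, against 74.7% over all genes. Over all genes 15.6% were in a higher class at 4 °C and 9.68% in a lower one. The shares were near these on 7AS (15.1% and 8.55%), 7DS (15.5% and 9.75%) and 4AL (15.8% and 9.48%). On 7BS they were 12.9% and 11.2%, or 84 and 73 genes.

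The summed FPKM of kept genes was higher at 4 °C on each arm in the deposited values. The ratio of 4 °C to 23 °C was 1.24 on 4AL, 1.20 on 7AS, 1.19 on 7DS and 1.18 on 7BS, against 1.19 over all genes. As over all genes, a small share of the genes higher at 4 °C made up 50% or more of the summed increases. It was 6.50% on 7BS (23 of 354 genes), 6.84% on 7DS (36 of 526), 7.49% on 4AL (45 of 601) and 8.58% on 7AS (43 of 501), near the 7.76% of all genes. Genes at least 4-fold higher supplied 36.7% of the increases on 7BS, 33.7% on 7DS, 27.8% on 4AL and 23.4% on 7AS, against 25.6% over all genes. Without the 5 genes with the largest difference in either direction, chosen after their values were seen, the ratio was 1.20 on 4AL, 1.19 on 7AS, 1.19 on 7BS and 1.15 on 7DS. Without the 5 largest increases, chosen likewise, it was 1.18, 1.15, 1.11 and 1.13 in the same order. Leaving out increases alone can only lower the ratio.

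Genes left out for a mean of 100 FPKM or more had lower summed FPKM at 4 °C on all 4 arms, as over all arms. On 7AS 8 of these 24 were higher at 4 °C, or 33.3%, against 58.2% of 1063 such genes over all arms. Their summed FPKM had a ratio of 0.77, against 0.94 over all arms. The whole arm, all genes included, had a ratio of 1.002 where its kept genes had 1.20, against 1.08 and 1.19 over all arms. On the other arms 7 of 13 were higher on 7BS, 18 of 33 on 7DS and 16 of 30 on 4AL, with ratios of summed FPKM of 0.99, 0.97 and 0.92. The median log2 ratio of these genes was -0.32 on 7AS, 0.08 on 7BS, 0.009 on 7DS and 0.18 on 4AL, all below the 0.20 of all arms. At 2-fold, 4 of the 24 genes were higher and 4 lower on 7AS, 3 and 0 of 13 on 7BS, 5 and 4 of 33 on 7DS, and 5 and 4 of 30 on 4AL, beside a background of 23.5% higher and 12.4% lower.

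Genes left out for less than 1 FPKM at 23 °C reached high levels at 4 °C on 3 of the 4 arms. At a level of 20 FPKM, chosen after the values were seen, 7 of 118 such genes on 7AS, 7 of 87 on 7DS and 11 of 129 on 4AL were above it at 4 °C, or 5.93%, 8.05% and 8.53%, against 3.24% over all arms. On 7BS it was 0 of 60, and the highest went from 0.937 to 17.97 FPKM at 4 °C. The highest on the other arms had 524.5 FPKM on 7AS, 547.1 FPKM on 7DS and 327.7 FPKM on 4AL at 4 °C. Of genes under 1 FPKM at 4 °C alone, 4 of 80 on 7AS, 4 of 83 on 7BS, 3 of 98 on 7DS and 0 of 128 on 4AL had at least 10 FPKM at 23 °C, against 2.18% over all arms. Reads of near-identical homoeologous copies can be assigned to either copy, so values of single arms are not fully separate measurements.

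The share of genes with a single listed transcript differed between the arms. On 7AS 27.4% of kept genes had a single listed transcript, against 18.3% on 7BS, 19.3% on 7DS, 16.1% on 4AL and 20.04% over all genes. Over all genes, those with 1 transcript had a higher median log2 ratio (0.15) than those with several (0.10). Among genes with 1 transcript the medians were 0.20 on 7BS and on 4AL, 0.15 on 7DS and 0.05 on 7AS, so 7BS and 7DS were not below all genes there. Among genes with several they were 0.05, 0.13, 0.06 and 0.03 in the same order.

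Among genes with several transcripts, the leading transcript changed between conditions in 128 of 705 on 7AS, 97 of 532 on 7BS, 140 of 778 on 7DS and 147 of 876 on 4AL. These are 18.2%, 18.2%, 18.0% and 16.8%, close to the 18.2% of all genes. With a leading share of 60% or more required at both temperatures, it changed in 7 of 382, 4 of 282, 4 of 396 and 12 of 463 genes. The 2.59% on 4AL was the largest of these shares, against 1.40% over all genes. The split of shared reads between transcripts is an estimate whose error is not in the table.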

How the data were processed

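Leaf RNA was sequenced from wheat at 23 °C and 4 °C, in 3 libraries each. The authors deposited FPKM values, 1 per transcript and condition, in columns named control and cold, per the file headers; control was taken as 23 °C. The tools named in the submitters' processing notes are Cuffdiff 2.1.1 and Cufflinks 2.1.1, STAR 2.3.0e, Trimmomatic 0.30 and CASAVA 1.8.2. Settings, genome build and the way libraries were combined: not given in the sources used here. Of 442311 transcripts, 384429 have a gene ID, and 0 of 99386 IDs matched a RefSeq gene table (IWGSC CS RefSeq v2.1), so no names, coordinates or sequences are given.

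FPKM were summed per gene with pandas 2.3.3. With 1 value per condition, genes past 2-fold, 4-fold and 8-fold were counted and set beside all genes under the same filter. The counting was checked on simulated data. No test was made and depth is unknown. A plain ratio was used because a pseudocount compresses low classes. Named IDs are the 2 largest and 2 smallest ratios at a mean of at least 5 FPKM. Alternatives were a pseudocount, other filters, 2 scalings and genes with 1 transcript. The arms and lists were chosen with earlier results of these data known.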

Additional observations from a re-analysis of the deposited data

How the results depend on the processing

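No paired analysis was possible because each condition has a single column of values, and leaving out a library or fitting a replicate block was not run for that reason. Over 7 settings, the one reported included, the median of 4AL was above that of all genes in 7 and that of 7AS below it in 7. Median-of-ratios scaling is not among them, since it shifts all genes alike. 7BS was below in 5 and 7DS in 6; the exceptions were genes with 1 transcript for both arms and a minimum of 5 FPKM for 7BS. In the order 7AS, 7BS, 7DS and 4AL, median log2 ratios were -0.077, -0.042, -0.031 and 0.042 after median-of-ratios scaling (all genes -0.0023) and -0.123, -0.094, -0.076 and -0.023 after quantile normalization (all genes -0.061). Scaling also turned the class medians of 7AS at 5 to under 20 FPKM (-0.049) and of 4AL at 1 to under 5 FPKM (-0.057). With a pseudocount of 1 the medians of 7BS, 7DS and 4AL were 0.055, 0.059 and 0.112. They were 0.12, 0.19, 0.15 and 0.19 with both sums at least 5 FPKM, 0.054, 0.039, 0.052 and 0.108 with a mean of at least 1 FPKM and a pseudocount of 1, and 0.052, 0.205, 0.153 and 0.201 for genes with 1 transcript. Without an upper limit that of 7DS was 0.069. Counts of genes at least 2-fold higher were 55, 29, 51 and 60 with both sums at least 5 FPKM and 42, 17, 21 and 28 for genes with 1 transcript; those at least 2-fold lower were 14, 15, 32 and 19, and 27, 10, 18 and 16. Fewer genes enter in both settings. The pseudocount of 1 gave 48 lower genes on 7AS, 53 on 7DS and 48 on 4AL. In the class of 1 to under 5 FPKM it gave 21, 9, 13 and 24 higher and 14, 14, 12 and 15 lower genes, because it compresses low values. The other counts stayed within 1.5 times of those reported.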

Other observations

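Genes of an arm were also put in the order of their transcript numbers, whose relation to position is not known here. After a gene at least 2-fold higher at 4 °C, the next kept gene of the arm was also at least 2-fold higher in 17 of 122 cases on 7AS, 9 of 71 on 7BS, 7 of 114 on 7DS and 22 of 147 on 4AL. These are 13.9%, 12.7%, 6.14% and 15.0%, against 14.1% over all genes. For genes at least 2-fold lower the counts were 4 of 79, 6 of 59, 5 of 86 and 6 of 82, or 5.06%, 10.2%, 5.81% and 7.32%, against 7.78% over all genes. These shares were computed after other results had been seen and were not tested.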
